A study of Mus musculus with 2 samples.

Results

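The imprinted Gnas locus of the mouse was examined as every CpG cytosine of a fixed interval on chromosome 2 (build mm10), which holds Gnas with all its starts and some flanking sequence, that had at least 5 reads in both liver libraries of the series. The first lay at 174274475 and the last at 174345374. These were 676 cytosines, 357 on the plus strand and 319 on the minus strand, of 2521919 such cytosines in the whole series. They lay at 411 CpGs, of which 265 were measured on both strands. DNA methylation was measured by reduced representation bisulfite sequencing, which reads CpGs near the cutting sites of restriction enzymes, here TaqαI and MspI. The series held 1 library from the liver of CD-1 mice fasted for 12 hr and 1 library from the liver of untreated CD-1 mice, which are called control here. All mice were 12 weeks old. The number of mice behind each library is not stated by the labels.

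Gnas encodes the stimulatory G protein alpha subunit (Gs alpha), which couples receptors such as that of glucagon, a fasting hormone acting on the liver, to the production of cyclic AMP. The gene is one of the textbook cases of genomic imprinting, in which the parental origin of a chromosome sets the methylation of a promoter. Its most upstream promoter, Nesp, is known to be methylated on the paternal chromosome. The promoter of the long coding variant XL, the start of the antisense transcript Nespas beside it and the promoter of the noncoding exon 1A are known to be methylated on the maternal chromosome. The promoter of Gs alpha itself is known to be unmethylated on both. A differentially methylated promoter therefore gives an intermediate level when the reads of both chromosomes are pooled, as they were here.

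In the RefSeq table of GRCm38.p6, the assembly that mm10 is made from, the region holds 3 genes. Gnas runs from 174284320 to 174346744, the antisense RNA gene Gnasas1 (Nespas) from 174281237 to 174295436 and the lncRNA gene Gm30189 from 174320906 to 174327387. The promoter table used here lists 4 starts of Gnas. From their order and spacing, 174284320 was read as the Nesp start, 174327749 and 174327768 as the start of exon 1A and 174330006 as the start of Gs alpha. The XL start and the starts of Gnasas1 and Gm30189 were not analysed here.

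The promoters of Nesp, of exon 1A and of Gs alpha are shown because they hold annotated starts of Gnas, and because they show which CpGs the assay reached. Each is the plus strand from 250 bases before to 50 bases after the annotated start, taken from RefSeq (GRCm38.p6), 5′ to 3′, and capitals mark the CpGs that were measured.
Nesp, chr2:174284070-174284369: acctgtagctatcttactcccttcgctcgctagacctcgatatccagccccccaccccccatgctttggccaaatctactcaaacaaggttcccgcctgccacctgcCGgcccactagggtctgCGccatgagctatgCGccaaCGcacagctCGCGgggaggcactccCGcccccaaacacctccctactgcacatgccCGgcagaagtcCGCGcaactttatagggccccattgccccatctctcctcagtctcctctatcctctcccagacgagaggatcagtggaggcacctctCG
Exon 1A, chr2:174327499-174327798: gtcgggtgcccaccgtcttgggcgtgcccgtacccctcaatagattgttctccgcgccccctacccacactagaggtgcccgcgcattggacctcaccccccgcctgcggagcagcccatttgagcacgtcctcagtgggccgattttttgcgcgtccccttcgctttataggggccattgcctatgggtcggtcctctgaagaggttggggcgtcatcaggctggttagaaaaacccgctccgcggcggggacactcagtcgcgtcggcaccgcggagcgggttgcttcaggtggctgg
Gs alpha, chr2:174329756-174330055: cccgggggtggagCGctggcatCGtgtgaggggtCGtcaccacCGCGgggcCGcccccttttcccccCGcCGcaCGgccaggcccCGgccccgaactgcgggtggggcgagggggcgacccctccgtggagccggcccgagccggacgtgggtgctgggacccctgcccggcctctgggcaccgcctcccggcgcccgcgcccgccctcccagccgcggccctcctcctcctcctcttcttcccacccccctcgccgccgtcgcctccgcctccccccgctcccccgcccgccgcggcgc
The Nesp sequence holds 16 CpGs, of which 11 were measured at 21 cytosines, with mean levels of 40.9% in the fasted and 24.9% in the control library. The exon 1A sequence holds 27 CpGs and none was measured, the nearest measured CpG being 101 bp from the start, at 174327850. The Gs alpha sequence holds 40 CpGs, of which 10 were measured at 10 cytosines, with means of 1.25% in the fasted and 0% in the control library. Both strands were searched for the enzymes' sites, which read the same on either strand. CCGG, the site of MspI, occurs 2 times in the Nesp sequence, 0 times in that of exon 1A and 6 times in that of Gs alpha. TCGA, the site of TaqαI, occurs 1 time in the Nesp sequence and 0 times in each of the other 2. Of 32851 promoters of the same length, 52.8% hold CCGG and 22.0% hold TCGA.

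Over all cytosines the files counted 51276705 reads in the fasted and 49253627 in the control library, a read counting once for each cytosine it covers. Within the locus the 676 cytosines had a median of 16 reads in the fasted and 15 in the control library, with ranges of 5 to 62 and 5 to 66. With 1 library in each group no spread between animals could be estimated. Every p-value below comes from a test on reads, which compares these 2 libraries and not the conditions. Both the p-values and the intervals describe counting error at most. PCR copies of a molecule could not be told from separate molecules. Where reads were summed over cytosines, a read counted at each one it covered. Those p-values tend to be too low and those intervals too narrow. In bulk liver DNA a different mix of cells and a different methylation within a cell type cannot be told apart. Of 12 hepatocyte genes taken as tissue markers 4 had a measured start, at 9.76% to 29.4% in the fasted and 15.2% to 33.0% in the control library. Of 13 genes of other cells 6 were measured, at 0.711% to 88.0% in the fasted and 1.71% to 60.0% in the control library. None of the marker starts in either list was called different, but so few markers were measured that they do not check the label of the tissue.

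The locus was dominated by intermediate methylation. Averaged over both libraries, 387 of the 676 cytosines (57.2%) were intermediately methylated, here meaning 25% to under 75%, against 14.8% of autosomal cytosines. Another 243 (35.9%) were unmethylated, below 25%, against 46.1% on the autosomes. Only 46 (6.80%) were methylated, at 75% or above, against 39.2% on the autosomes. The mean level of the locus was 29.5% in the fasted and 32.9% in the control library, a difference of -3.41 percentage points. Over all autosomal cytosines the means were 45.2% in the fasted and 45.03% in the control library, a difference of 0.1405 points. The plus strand of the locus averaged 32.9% in the fasted and 35.1% in the control library. Its minus strand averaged 25.6% in the fasted and 30.5% in the control library.

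**Figure D1:**
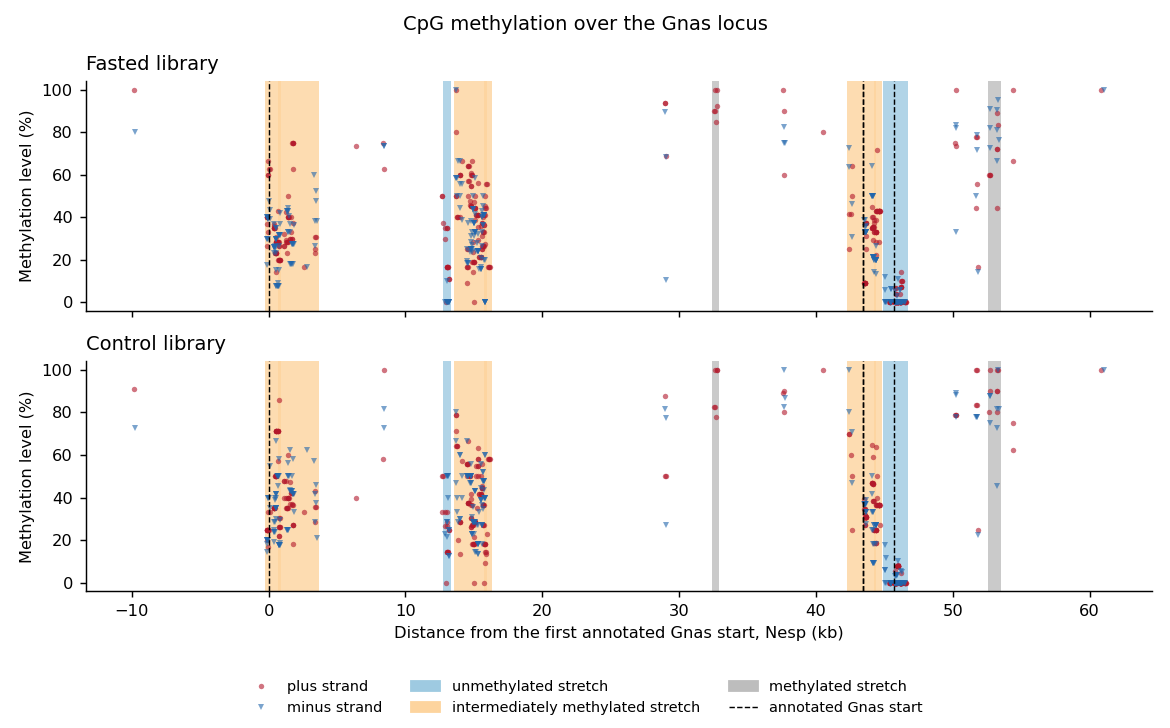
Methylation level (%) of each of the 676 cytosines against distance from the Nesp start (kb), the fasted library above the control library, with strand by marker, stretch class by shading and annotated Gnas starts as dashed lines. Intermediately methylated stretches lie around Nesp, beyond the upper end of the antisense gene and around exon 1A, and the Gs alpha start sits in a stretch near 0%.

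No single cytosine of the locus was called different between the libraries. A call needed a Benjamini-Hochberg adjusted p under 0.05 in a two-sided Fisher's exact test over all 2466496 autosomal cytosines and a difference of at least 25 points, and 0.0548% of them met it (0.0302% higher and 0.0246% lower in fasted liver). At an unadjusted p under 0.05 there were 27 cytosines in the locus (3.99%, against 1.85% of the autosomal ones), and the lowest adjusted p was 1. Among intermediately methylated cytosines that share was 5.68% in the locus and 6.54% on the autosomes. It was 6.52% in the locus and 1.42% on the autosomes among methylated cytosines, and 0.823% and 0.718% among unmethylated ones. Levels were higher in the fasted library at 240 cytosines, lower at 310 and equal at 126. Differences of at least 25 points occurred at 125 cytosines, 37 higher and 88 lower in the fasted library, which is 18.5% of the locus against 7.41% of the autosomes. Among intermediately methylated cytosines alone the share was 25.8% in the locus and 28.0% on the autosomes. It was 21.7% in the locus and 6.95% on the autosomes among methylated cytosines, and 6.17% in the locus and 1.21% on the autosomes among unmethylated ones. Intermediately methylated cytosines, 100 of the 125, thus lay slightly under their autosomal background, and the 10 methylated and 15 unmethylated ones made shares above theirs.

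The widest single differences rested on 5 to 15 reads. At 174284281 on the plus strand, upstream of the Nesp start, 10 of 15 reads were methylated in the fasted and 2 of 12 in the control library (66.7% against 16.7%, a difference of 50 points, unadjusted p = 0.0185 and adjusted p = 1 by Fisher's exact test). Next came 174286077 and 174286106 on the plus strand, both with 6 of 8 reads methylated in the fasted and 3 of 11 in the control library. Their equal counts place them in 1 block of cytosines, described further on. In the other direction, 174300095 and 174300130 on the minus strand had 0 of 5 methylated reads in the fasted and 3 of 5 in the control library. The third, 174284865 on the plus strand, had 1 of 7 in the fasted and 5 of 7 in the control library. All of these had an adjusted p of 1 by the same exact test.

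CpGs of 1 class that followed each other were joined to stretches, after a running median over 3 CpGs, with a new stretch after any gap over 1000 bp and at least 5 CpGs in each. The locus held 10 stretches with 364 of the 411 CpGs and 604 of the 676 cytosines. They are numbered S1 to S10 along the plus strand. S1, S2, S4, S5, S7 and S8 were intermediately methylated, S3 and S9 unmethylated, and S6 and S10 methylated. The class uses the mean over both libraries and not their difference. It still bears on the size of a difference, since a very low or very high mean leaves little room for one. The 6 intermediately methylated stretches held 238 CpGs and 404 cytosines with a mean level of 34.9% in the fasted and 38.7% in the control library. Their own means ran from 30.0% to 37.3% in the fasted and from 34.0% to 40.8% in the control library. All 6 lay under the median of the 9049 intermediately methylated stretches of the autosomes, which was 54.99% in the fasted and 54.8% in the control library.

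The intermediately methylated stretches were also long in CpGs. S4 held 90, the most of any intermediately methylated autosomal stretch, the next holding 75, and the median of such stretches held 6. That rank was lost at a minimum of 20 reads, at class limits of 35% and 65% and without smoothing. S1 and S2, with 42 CpGs each, were matched or exceeded by 20 stretches including themselves, and S7, with 36 CpGs, by 31 including itself. S8 held 21 CpGs and S5 held 7, which 113 and 3337 stretches reached.

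A stretch was called different at an adjusted p under 0.05 in Fisher's exact test on summed reads and at least 10 points between the mean cytosine levels, which 2.26% of 75506 autosomal stretches met (1.21% higher and 1.05% lower in fasted liver). One of the 10 stretches, S3, was called, lower in fasted liver. Neighbouring cytosines share molecules, so this test is too liberal. When the reads of a stretch were divided by its number of cytosines, none of the 75506 stretches was called, while 103 had an unadjusted p under 0.05. Of the 9049 intermediately methylated stretches 9.59% were called, and of the 6 in the locus none was.

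**Figure D2:**
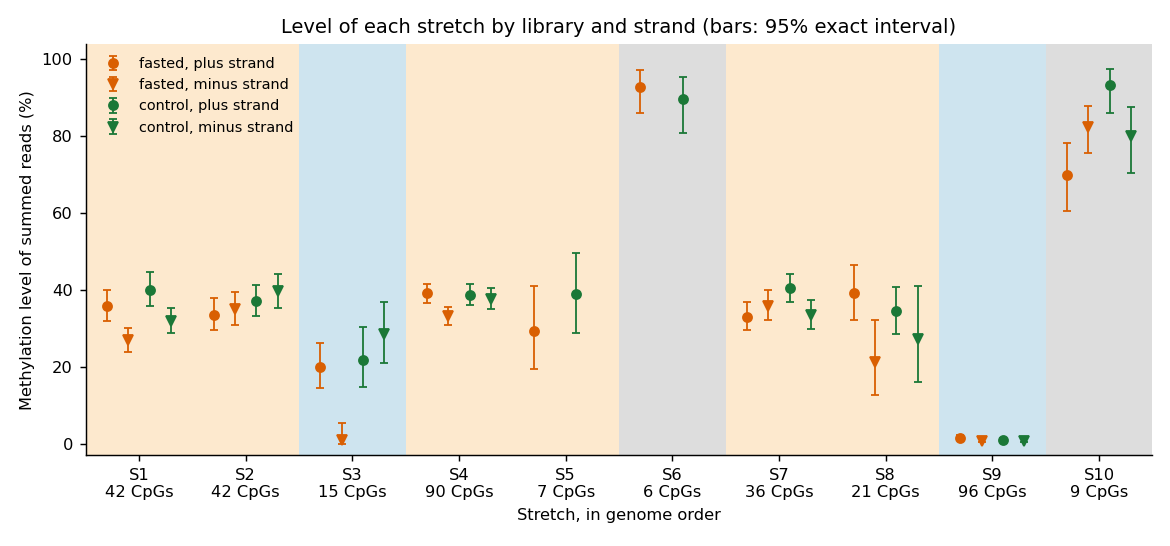
Methylation level of summed reads (%) of each stretch from S1 to S10 by library and strand, with backgrounds coloured by class. The 95% exact intervals cover counting error at most and tend to be too narrow, because a read counts at each cytosine it covers. S3 is the stretch whose minus strand stands near 1% in the fasted library and near 28% in the control library, and the strands of S10 are ordered oppositely in the libraries.

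S1 covered the Nesp start. It ran from 174284177 to 174285067, from 143 bp before to 746 bp after the start, inside the antisense gene and across the upstream end of Gnas. Its 42 CpGs at 78 cytosines had a mean level of 30.0% in the fasted and 40.8% in the control library, with SDs among CpGs of 11.1 and 14.8 points. The difference of -10.8 points was not called (p = 0.0185, adjusted p = 0.209 by Fisher's exact test). Plus strand cytosines of S1 averaged 34.5% in the fasted and 45.7% in the control library. Its minus strand averaged 25.4% in the fasted and 35.9% in the control library. Both strands were thus lower in fasted liver, and in each library the plus strand was the higher one.

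Within S1 the direction turned over a short distance. The 13 CpGs from 174284177 to 174284412, at the Nesp start, averaged 41.9% in the fasted and 26.9% in the control library, and 21 of their 24 cytosines were higher and 3 lower in fasted liver. The 37 CpGs from 174284689 to 174285133, just downstream and reaching into S2, averaged 25.3% in the fasted and 41.7% in the control library, with 17 of 69 cytosines higher and 50 lower. That group was not uniform. Its CpGs from 174284689 to 174284749 stood at 29.7% to 36.8% in the fasted and 27.2% to 35.3% in the control library. Every CpG from 174284752 to 174285048 was lower in fasted liver, and most from 174285066 to 174285133 were higher. The groups, divided at gaps over 150 bp, and these parts were chosen after the values were seen, so they were given no test. A minimum of 20 reads left 24 cytosines in S1, with a difference of 0.102 points.

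The CpGs of the printed Nesp promoter belong to the first group,  ranging from 22.0% to 55.2% in the fasted and from 17.1% to 36.7% in the control library. In the window from 1000 bp before to 500 bp after the Nesp start, 43 cytosines averaged 36.3% in the fasted and 30.1% in the control library. The difference of 6.24 points was not called (adjusted p = 0.118 by Fisher's exact test over 22731 windows at gene starts, of which 1.36% were called). With 2000 bp on each side the difference became -6.79 points.

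S2 followed after 54 bp, from 174285120 to 174287816, which is 800 to 3495 bp after the Nesp start. Its 42 CpGs at 68 cytosines averaged 35.2% in the fasted and 38.4% in the control library, a difference of -3.24 points (adjusted p = 0.405 by Fisher's exact test). The plus strand averaged 36.7% in the fasted and 37.1% in the control library, and the minus strand 33.5% in the fasted and 39.8% in the control library. At a minimum of 10 reads 49 cytosines of S2 were left, with a difference of -9.29 points and an adjusted p of 0.0440 by the same exact test, just under the 10 points a call needs. The strands were ordered oppositely in the libraries, within SDs among cytosines of 8.03 to 16.6 points. Between S1 and S2 lay 4 CpGs just at the class limit, at 26.0% in the fasted and 21.3% in the control library.

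**Figure D3:**
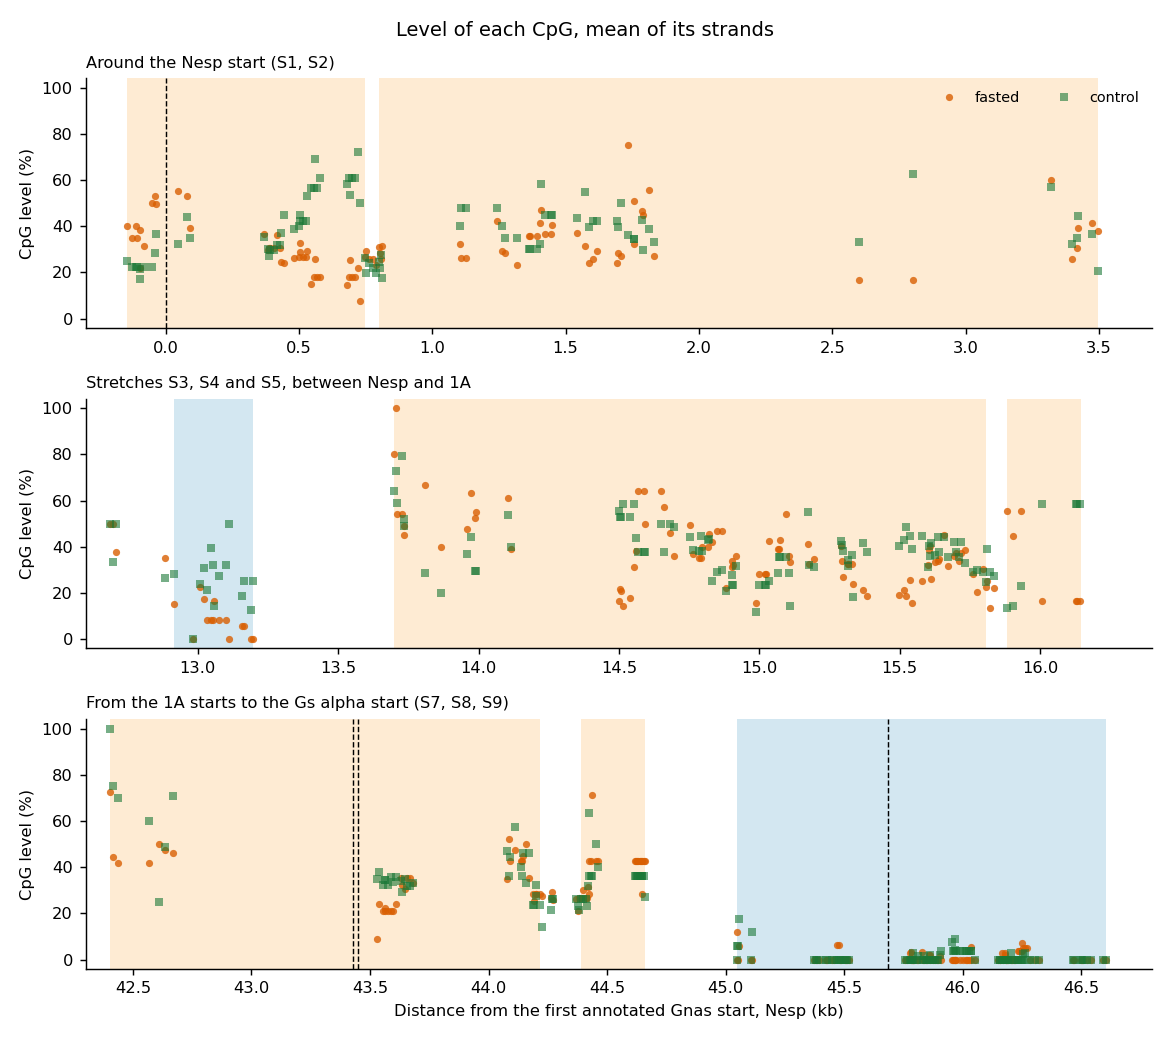
Level (%) of each CpG as the mean of its strands in the fasted (circles) and control (squares) libraries against distance from the Nesp start (kb), around Nesp (top), between Nesp and exon 1A (middle) and from exon 1A to Gs alpha (bottom). At the Nesp start most fasted values lie above the control values. From 174284752 to 174285048 the fasted values lie below, and in between the libraries lie close together. Both libraries are near 0 within S9.

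Between the end of S2 and the next stretch the antisense gene's upper end was crossed with few measured CpGs. The 8 CpGs from 174290702 to 174297202 averaged 58.9% in the fasted and 57.0% in the control library, and single CpGs ranged from 35% to 75% in the fasted and from 26.7% to 90.9% in the control library. They fell short of a stretch of 1 class.

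S3 ran from 174297235 to 174297517, 283 bp long, and its last CpG lay 2080 bp beyond the upper end of the antisense gene. Its 15 CpGs at 25 cytosines averaged 9.29% in the fasted and 26.4% in the control library, a difference of -17.1 points (p = 0.000447, adjusted p = 0.0180 by Fisher's exact test). Plus strand cytosines averaged 18.5% in the fasted and 20.3% in the control library. The minus strand averaged 0.769% in the fasted and 32.0% in the control library. The difference thus lay on 1 strand. Among the 13 minus strand cytosines, only 1 of 100 summed reads was methylated in the fasted library (1.00%, 95% exact interval 0.0253% to 5.45%), against 28.5% of 137 in the control library (21.1% to 36.8%). At single cytosines of that strand the depth was 5 to 10 reads in the fasted and 6 to 16 in the control library. A read that covers several of them is counted at each.

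The call of S3 depended on how reads were counted. After division of the reads by the number of cytosines its adjusted p was 1, and with every read count halved the difference was -14.3 points with an adjusted p of 0.912, both by Fisher's exact test. At a minimum of 10 reads 11 cytosines remained, with a difference of -14.6 points and an adjusted p of 0.370. The 12 plus strand cytosines alone differed by -1.76 points with an adjusted p of 1, and the 13 minus strand cytosines alone by -31.3 points with an adjusted p of 5.89e-07, in a strand split added after the values were seen. S3 was unmethylated by its mean over both libraries, but in the control library it lay just over the class limit of 25%.

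**Figure D4:**
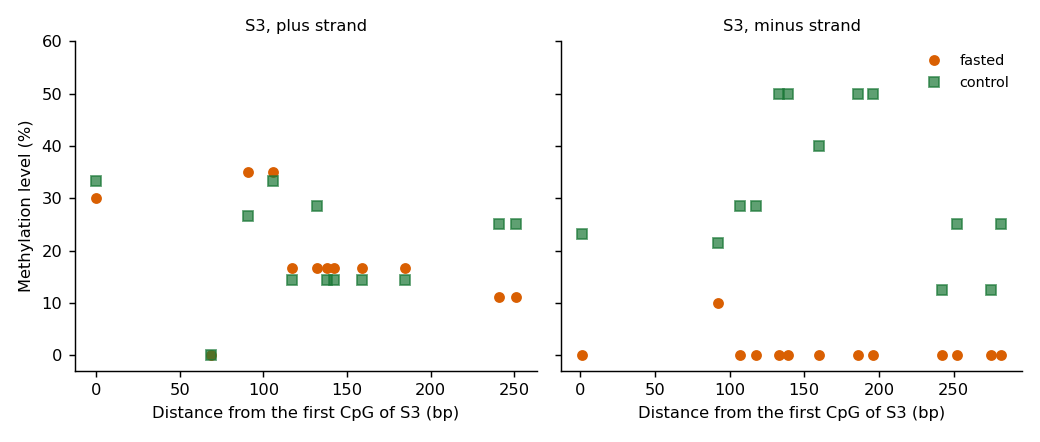
Methylation level (%) of each cytosine of S3 in the fasted (circles) and control (squares) libraries against distance from its first CpG (bp), the plus strand left and the minus strand right. On the plus strand the libraries overlap, and on the minus strand 12 of 13 cytosines are at 0% in the fasted library and none is in the control library.

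S4 began 503 bp beyond S3 and ran from 174298019 to 174300128, in the part of Gnas between the antisense gene and exon 1A where the XL promoter is known to lie. Its 90 CpGs at 163 cytosines were the deepest of the intermediately methylated stretches in summed reads, with 3072 in the fasted and 2573 in the control library. The mean level was 37.2% in the fasted and 38.4% in the control library, a difference of -1.21 points (adjusted p = 0.497 by Fisher's exact test). In summed reads 36.2% were methylated in the fasted (34.5% to 37.9%) and 38.3% in the control library (36.4% to 40.2%). On the plus strand the mean was 39.7% in the fasted and 38.4% in the control library. On the minus strand it was 34.5% in the fasted and 38.4% in the control library. At 84 cytosines the level was higher in fasted liver, at 78 lower and at 1 equal.

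The upstream end of S4 was the more methylated one. Its first 14 CpGs, from 174298019 to 174298436, averaged 57.9% in the fasted and 48.5% in the control library. From 174298821 to 174300463, over the rest of S4 and S5, 86 CpGs averaged 33.0% in the fasted and 36.7% in the control library. At the edge facing S3 the last CpG of S3 stood at 0% in the fasted and 25% in the control library, and the first CpG of S4 at 80% in the fasted and 64.3% in the control library.

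S5, 75 bp beyond S4, covered 263 bp from 174300202 to 174300464 and was measured on the plus strand only. Its 7 cytosines averaged 31.7% in the fasted and 40.6% in the control library, a difference of -8.83 points (adjusted p = 0.713 by Fisher's exact test), with SDs of 19.2 and 22.4 points among them. Its last 4 cytosines formed a block from 174300328 to 174300463 with 2 of 12 reads methylated in the fasted and 7 of 12 in the control library. At a minimum of 10 reads those 4 were what remained of S5, with a difference of -41.7 points and an adjusted p of 0.00340 by the same exact test. That test summed the reads of 4 cytosines with equal counts. Tested once as a block, they gave p = 0.0894 by Fisher's exact test. The 3 CpGs between S4 and S5 averaged 20.3% in the fasted and 31.8% in the control library.

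The longest unmeasured interval of the locus, 12835 bp, followed S5, from 174300463 to 174313298. Beyond it 4 CpGs averaged 70.8% in the fasted and 62.3% in the control library. S6, inside Gnas and with its first CpG 4002 bp before Gm30189, covered 160 bp from 174316904 to 174317063. It held 6 plus strand cytosines at 92.8% in the fasted and 90.4% in the control library, a difference of 2.41 points (adjusted p = 0.947 by Fisher's exact test). Single levels were 84.6% to 100% in the fasted and 77.8% to 100% in the control library. Inside Gm30189, 5 CpGs from 174321920 to 174324857 averaged 80.3% in the fasted and 89.7% in the control library, while the 7 nearest its upper end belong to the next stretch and were lower.

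S7 spanned the exon 1A starts. It ran from 174326724 to 174328536, from 1025 bp before to 786 bp after the first of them, and overlapped the upper end of Gm30189. Between 174326988 and 174327850, a gap of 862 bp that holds both starts, it had no measured CpG. Its 36 CpGs at 62 cytosines averaged 34.0% in the fasted and 39.1% in the control library, a difference of -5.08 points (adjusted p = 0.582 by Fisher's exact test). By strand, the plus averaged 29.5% in the fasted and 41.7% in the control library, while the minus averaged 38.9% in the fasted and 36.4% in the control library. The strands again stood in opposite order in the libraries. At a minimum of 20 reads the 22 cytosines left in S7 differed by 0.197 points.

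Levels in S7 were highest upstream of exon 1A. The 7 CpGs from 174326724 to 174326988, still upstream of exon 1A, averaged 48.4% in the fasted and 63.6% in the control library. The 15 CpGs from 174327850 to 174328002, just downstream of its start, averaged 26.2% in the fasted and 33.7% in the control library. Farther on, 32 CpGs from 174328397 to 174328781, over the end of S7 and part of S8, averaged 33.9% in the fasted and 31.9% in the control library. The window at the first exon 1A start held 34 cytosines at 29.6% in the fasted and 37.3% in the control library, a difference of -7.64 points (adjusted p = 0.428 by Fisher's exact test). For the second of these starts a window of 33 cytosines gave 29.3% in the fasted and 36.3% in the control library (adjusted p = 0.496 by the same exact test).

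S8 lay 961 to 1229 bp after the first exon 1A start, from 174328710 to 174328979. Its 21 CpGs at 26 cytosines averaged 37.3% in the fasted and 34.0% in the control library, a difference of 3.26 points (adjusted p = 1 by Fisher's exact test). It was the one intermediately methylated stretch with the higher mean in fasted liver. The plus strand averaged 41.0% in the fasted and 35.6% in the control library, and the 5 minus strand cytosines averaged 21.3% in the fasted and 27.3% in the control library. The 7 CpGs between S7 and S8 averaged 26.2% in the fasted and 22.6% in the control library.

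Intermediate methylation ended abruptly before Gs alpha. The last CpG of S8, at 174328978, stood at 42.9% in the fasted and 27.3% in the control library. The first CpG of S9, at 174329366 and 388 bp on, stood at 0% in the fasted and 5.88% in the control library. From there S9 ran to 174330923, from 640 bp before to 916 bp after the Gs alpha start, with 96 CpGs at 154 cytosines. Its mean was 1.04% in the fasted and 1.23% in the control library, a difference of -0.195 points (adjusted p = 0.831 by Fisher's exact test).

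S9 had the smallest SD among CpGs of the 10 stretches, 2.12 points in the fasted and 2.75 in the control library. No methylated read was found at 132 of its 154 cytosines in the fasted and at 127 in the control library. In summed reads 1.07% of 3270 were methylated in the fasted (95% exact interval 0.747% to 1.49%) and 0.847% of 3661 in the control library (0.576% to 1.20%). Plus strand cytosines averaged 1.37% in the fasted and 1.54% in the control library, and the minus strand 0.750% in the fasted and 0.962% in the control library. At a minimum of 20 reads its 59 cytosines differed by 1.32 points with an adjusted p of 0.00615 by Fisher's exact test, far under the 10 points a call needs. The highest CpG stood at 11.8% in the fasted and 17.6% in the control library. In the window at the Gs alpha start 114 cytosines averaged 0.763% in the fasted and 1.53% in the control library (adjusted p = 0.677 by Fisher's exact test).

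Downstream of S9 the levels were higher again. The 10 CpGs from 174334518 to 174336993 averaged 62.1% in the fasted and 76.1% in the control library, with single CpGs as low as 15.5% in the fasted and 23.6% in the control library. S10 followed from 174337013 to 174337711, 7007 to 7704 bp after the Gs alpha start. Its 9 CpGs at 15 cytosines averaged 75.7% in the fasted and 85.5% in the control library, a difference of -9.73 points (p = 0.0149, adjusted p = 0.184 by Fisher's exact test). The plus strand averaged 68.7% in the fasted and 92.9% in the control library, and the minus strand 81.8% in the fasted and 79.0% in the control library. The 7 plus strand cytosines alone would have been called, at -24.1 points with an adjusted p of 0.00354 by the same exact test, and the 8 on the minus strand differed by 2.87 points. Of the 7, 5 formed a block from 174337544 to 174337664. Its median was 13 of 18 methylated reads in the fasted and 9 of 10 in the control library. Tested once as a block, it gave p = 0.375 by Fisher's exact test. Of single cytosines 174337013 on the plus strand differed most, with 6 of 10 reads methylated in the fasted and 20 of 20 in the control library. The CpG 20 bp before it, 174336993, had 5 reads in the fasted and 10 in the control library on its 1 measured strand. Repeat counting of reads was not tested there. The last 4 CpGs of the locus, from 174338738 to 174345374, averaged 91.7% in the fasted and 84.4% in the control library, and the first 2, from 174274475 to 174274559 before Nesp, averaged 90% in the fasted and 81.8% in the control library.

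The strands of a CpG were compared within each library, at the 265 CpGs measured on both. None was called in either library at an adjusted p under 0.05 in Fisher's exact test and 25 points, where 0.0471% of 773005 autosomal CpGs were called in the fasted and 0.0498% in the control library. At an unadjusted p under 0.05 there were 9 CpGs (3.396%) in the fasted and 14 (5.28%) in the control library, against 1.73% and 1.71% of autosomal CpGs. These autosomal shares were not matched for methylation class, and the locus was richer in intermediate methylation. Over these CpGs the plus strand averaged 29.6% and the minus strand 26.2% in the fasted library, against 32.4% and 31.0% in the control library. At the 166 such CpGs of intermediately methylated stretches the plus strand averaged 35.8% and the minus strand 32.4% in the fasted library, against 39.4% and 37.0% in the control library. The widest gap in the fasted library was at 174286106 in S2, with 75% on the plus and 18.2% on the minus strand, and in the control library at 174300094 in S4, with 0% on the plus and 60% on the minus strand. The lowest p-values lay at CpGs of S4 with more counted reads. In the fasted library 174299186 had 20 of 30 methylated reads on the plus and 11 of 41 on the minus strand. In the control library 174299613 had 12 of 19 on the plus and 4 of 22 on the minus strand. The adjusted p of 174299186 was 0.738 by the exact test, and that of the other 3 CpGs was 1. In the fasted library 174299168 and 174299186 had 72 and 71 reads over both strands, while 174299151 just before them had 36. At 174299151 the plus strand stood at 60% and the minus strand at 23.8% (p = 0.0410 by the same exact test). Repeat counting of reads was not tested there.

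Runs of at least 3 neighbouring cytosines of 1 strand with the same total reads in each library were taken as blocks, since such runs can come from the same molecules. This was added after the values were seen. The locus held 103 blocks, and 64 of them, with 283 cytosines, lay in intermediately methylated stretches. Each was tested once, on its median methylated reads. None was called at an adjusted p under 0.05 by Fisher's exact test and 25 points, against 0.007% of 285649 autosomal blocks (0.00385% higher and 0.00315% lower in fasted liver). An unadjusted p under 0.05 by that test was found for 2 of the 103 and for 1523 of the 285649. The autosomal blocks were not matched for methylation class. In the intermediately methylated stretches 25 blocks were higher in fasted liver, 38 lower and 1 equal. Their median level was 33.3% in the fasted and 36.8% in the control library.

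Single blocks show how the levels arose from reads. In the minus strand block of S4 from 174299106 to 174299115, all 3 cytosines had 8 of 32 reads methylated in the fasted and 18 of 36 in the control library (p = 0.0464, adjusted p = 1 by Fisher's exact test). Their depth was exactly 2 times that of the next cytosine of the strand, 174299137, which had 4 of 16 in the fasted and 10 of 18 in the control library (p = 0.0921 by the same exact test). In S1 the minus strand block from 174285007 to 174285049 had a median of 1 of 13 in the fasted and 6 of 12 in the control library over 6 cytosines (p = 0.0302, adjusted p = 1 by the same exact test). On the plus strand facing it, from 174285006 to 174285042, the median was 2 of 7 in the fasted and 5 of 7 in the control library. In the other direction stood the block of S2 from 174286055 to 174286133, with 6 of 8 in the fasted and 3 of 11 in the control library. At the end of S8, 10 plus strand cytosines from 174328936 to 174328978 had 2 to 3 of 7 methylated reads in the fasted and 3 to 4 of 11 in the control library.

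Methylation was even along the blocks of the locus. Among the 50 blocks with 25% to 75% in both libraries, the number of methylated reads varied by at most 1 along the block in 54% in the fasted and 50% in the control library. Of 18564 such autosomal blocks this held for 11.3% in the fasted and 12.7% in the control library. Median depth was 16.5 reads in the fasted and 16 in the control library for the locus, against 13 and 12 for the autosomes. The files hold no reads, so whether single molecules were methylated at all or at none of their CpGs was not tested. At 50 cytosines in the fasted and 49 in the control library, depth was exactly 2 times that of a neighbour of the same strand within 50 bp, and at 38 of them this held in both libraries.

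**Figure D5:**
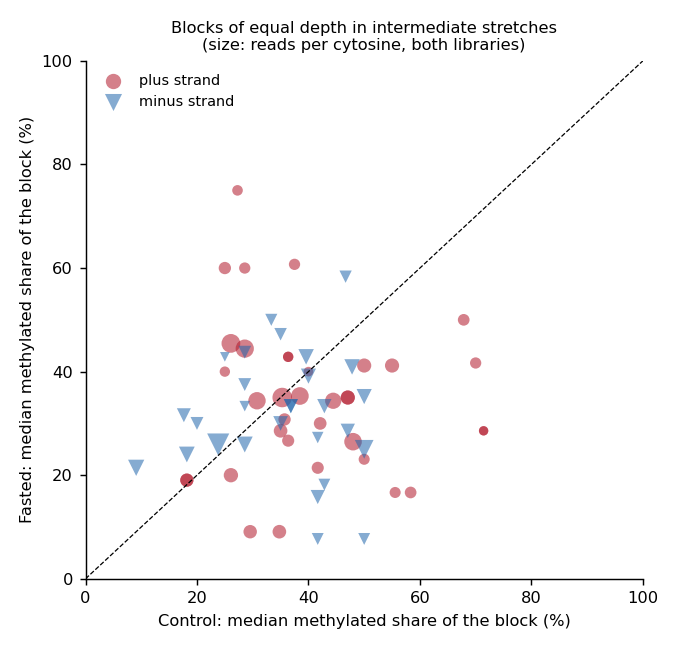
Median methylated share (%) of each of the 64 equal depth blocks in intermediately methylated stretches, the fasted library on the vertical and the control library on the horizontal axis, with marker size by reads and the dashed line at equality. Blocks lie on both sides of the line, 25 above it and 38 below it.

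Windows of 1000 bp need no class. Of 21 windows in the locus 4 were higher and 17 lower in fasted liver, with a median difference of -5.46 points, while 48.3% of autosomal windows were lower and their median difference was 0.0365. The window from 174285001 to 174286000, over the end of S1 and the start of S2, was called lower, where 0.676% of 206284 autosomal windows were called lower, 0.759% higher and 1.43% in either direction. Its 60 cytosines averaged 29.0% in the fasted and 40.0% in the control library, a difference of -11.0 points (p = 0.000654, adjusted p = 0.0376 by Fisher's exact test). After division of the reads by the number of cytosines the adjusted p was 1, and 0.000485% of the autosomal windows, all of them higher in fasted liver, were then called. The widest decrease, from 174336001 to 174337000 in the gene body, was 54.7% in the fasted and 72.7% in the control library (adjusted p = 0.599 by the exact test). The widest increase, from 174313001 to 174314000, was 70.8% in the fasted and 62.3% in the control library (adjusted p = 0.925 by the exact test).

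The coverage rule had its own edge. The 26 cytosines whose shallower library had exactly 5 reads averaged 26.9% in the fasted and 49.3% in the control library. Just outside it, 26 cytosines with 4 reads in the shallower library averaged 26.2% in the fasted and 18.3% in the control library.

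The genes through which Gs alpha acts had mostly unmethylated starts, as gene starts in general did. In a list of 45 genes of cyclic AMP signalling, 43 were measured at 57 starts. None was called higher or lower, where 1.36% of all starts were called in either direction. Their median level was 1.504% in the fasted and 1.53% in the control library, against 1.97% in each library over all 22731 windows, and 49 starts in the fasted and 48 in the control library lay below 10%. Starts below 10% were not counted over all windows, whose median also lay below 10%. Between 25% and 75% in both libraries were 4 starts, those of Nesp, of exon 1A and of the adenylyl cyclase gene Adcy7. That is 7.02% of the measured starts of the list, against 7.53% of all starts. Adcy7 stood at 66.3% in the fasted and 63.1% in the control library. The start of another cyclase gene, Adcy4, stood at 10.8% in the fasted and 16.5% in the control library, a difference of -5.67 points (adjusted p = 0.112 by Fisher's exact test).

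Some other imprinted genes had start windows at an intermediate level, as Nesp and exon 1A did. Of a list of 42, 37 were measured at 45 starts, with a median of 15.7% in the fasted and 21.7% in the control library, and 20 starts in the fasted and 18 in the control library lay below 10%. Over all starts the median was 1.97% in each library, and starts below 10% were not counted. At 16 starts of 16 genes of the list both libraries lay between 25% and 75%, which is 35.6% of its measured starts against 7.53% of all starts. These were Mcts2, Nnat, Mest, Nap1l5, Peg3, Usp29, Snrpn, Plagl1, Commd1, Meg3, Slc38a4, Airn, Peg10, Sgce, H19 and Peg13. Of these, Peg10 and Sgce share the same 21 cytosines, and the windows of Peg3 and Usp29 overlap. The median of the 16 starts was 38.8% in the fasted and 35.6% in the control library, with ranges of 29.7% to 69.6% and 28.7% to 73.8%. Another start of Commd1 stood at 0.631% in the fasted and 0.430% in the control library. Another start of Slc38a4 stood at 14.7% in the fasted and 21.4% in the control library. Of the 45, 3 were called higher in fasted liver and 3 lower, against 0.686% and 0.673% of all starts. The higher ones were Mest (63.4% in the fasted and 49.96% in the control library), Zrsr1 (35.7% in the fasted and 20.5% in the control library) and Igf2r (32.5% in the fasted and 21.7% in the control library). The lower ones were Ndn (6.36% in the fasted and 27.5% in the control library), Magel2 (15.7% in the fasted and 25.8% in the control library) and Meg3 (37.4% in the fasted and 51.7% in the control library). After division of the reads by the number of cytosines none of the 6 was called, and no start of Gnas was called under either count. The shares over all starts were not matched for methylation class, and the list was richer in intermediate levels. Among autosomal stretches 9.59% of the intermediately methylated ones were called, against 1.06% of the unmethylated ones.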

How the data were processed

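Genomic DNA of frozen liver was cut with TaqαI and MspI, size selected on a gel, converted with bisulfite, amplified and sequenced on an Illumina HiSeq, per the labels' protocols. Bismark 0.14.3, bcl2fastq 1.8.4 and the build mm10 are listed in the submitters' processing notes, while trimming and the handling of duplicates and of overlapping mates are not given. The deposited files give methylated and total read counts per CpG cytosine and strand as text, and a score, 1000 times the methylated fraction. The read counts were used and the score differed from them by at most 0.5.

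Levels were averaged over cytosines that reached 5 reads in each library. Two-sided Fisher's exact tests with Benjamini-Hochberg adjustment ran over all features of the 19 autosomes (Python 3.11.15, numpy 2.4.6, pandas 2.3.3, numba 0.67.0, checked against scipy 1.17.1 and tested on simulated data). Intervals are exact Clopper-Pearson at 95%. Start windows of genes with no listed start were set at the gene end with more cytosines, and several starts of a gene were tested separately. Named were all genes and stretches of the locus, the called and the 3 most different cytosines and 1 window in each direction, called list members, the 2 list members that differed most and intermediately methylated imprinted starts. Other items named in the text were chosen after their values were seen. Members, lists and rules were chosen with earlier results of these data known. Alternatives were other coverage minimums, halved or divided reads, merged or single strands, and other stretch and window settings.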

Additional observations from a re-analysis of the deposited data

How the results depend on the processing

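No paired analysis was possible because each group has 1 library, and for the same reason no library could be left out. The cause was not tested for any change below except where fewer cytosines or reads entered by construction. Calls of single cytosines (0) and of strands (0 in each library) kept that count under all alternatives run for them. Smaller changes of the counts below are not all listed. The 6 intermediately methylated stretches became 5 at a minimum of 10 or of 20 reads and at class limits of 20% and 80%. They became 8 when split at gaps over 500 bp, 10 at class limits of 35% and 65% and 11 without smoothing. The 2 unmethylated stretches became 1 at limits of 20% and 80%, 13 at 35% and 65% and 4 with at least 3 CpGs. The 2 methylated stretches became 1 at a minimum of 10 reads, at limits of 20% and 80% or without smoothing, 0 at a minimum of 20 reads or with at least 10 CpGs and 5 with at least 3 CpGs. The longest intermediately methylated stretch had 20 CpGs in place of 90 at a minimum of 20 reads, 35 at limits of 35% and 65% and 38 without smoothing. The 1 called stretch became 0 at a minimum of 20 reads, at limits of 20% and 80%, with halved reads and with divided reads, and 3 at limits of 35% and 65%. The 1 called window became 0 at a minimum of 20 reads, with halved reads and with divided reads, and 2 with windows shifted by 500 bp. Calls of imprinted starts, 3 higher and 3 lower, became 0 higher and 1 lower at a minimum of 20 reads, 1 and 1 with halved reads and 0 and 0 with divided reads.

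Directions turned for these differences. With halved reads S8 stood at -2.32 and S9 at 0.426 points, and with reads weighted equally S9 stood at 0.224. On the plus strand alone S4 stood at 1.23, and on the minus strand alone S7 stood at 2.49, S8 at -5.94 and S10 at 2.87. At a minimum of 20 reads S1 stood at 0.102, S4 at 4.02, S7 at 0.197, S9 at 1.32, both exon 1A starts at 0.855 and the Gs alpha start at 0.378. With 2000 bp on each side the Nesp start stood at -6.79 and the Gs alpha start at 0.629 points. Depth limits single cytosines most, since 501 of the 676 had at least 10 and 157 at least 20 reads in both libraries.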
